A study of Mus musculus with 6 samples.

Results

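The genes described here were the bone morphogenetic protein (BMP) ligands Bmp2, Bmp4, Bmp5, Bmp6, Bmp7 and Gdf5 and the secreted BMP antagonists Grem1, Nog, Chrdl1 and Bmper. They were taken by exact symbol from the table of raw counts, which gave 10 of the 48440 genes listed, 6 of them ligands and 4 antagonists. The paper describes the samples as murine tissue surrounding cartilage engineered from rabbit bone marrow stem cells (BEC). According to its methods, samples were harvested with the murine tissue entangled, so RNA of the rabbit cells may be included. BEC was wrapped in an electrospun membrane of polycaprolactone and collagen and placed under the skin of male BALB/c nude mice, which lack a thymus and with it most T cells. In the 0%-Axitinib group, which the sample labels call untreated, the membrane held no drug. In the 3%-Axitinib group the membrane was loaded with axitinib, an inhibitor of the tyrosine kinases of the VEGF receptors, at 3% of the weight of polycaprolactone and collagen. Both groups carried BEC and the membrane, both were harvested 12 weeks after implantation, and each had n = 3 samples. According to the methods, each mouse carried a pair of constructs of the same group. Since the mouse is not given per sample, samples of a group may share one, and the p-values measure the spread between these samples only.

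BMPs are secreted dimers of the TGF-β family that bind type I and type II serine/threonine kinase receptors, after which Smad1, Smad5 and Smad9 are phosphorylated, join Smad4 and switch on targets such as the Id genes. Antagonists such as noggin and gremlin bind the ligands outside the cell and keep them from the receptors. The pathway is known for driving cartilage formation, chondrocyte hypertrophy and bone formation, and several antagonists are themselves induced by BMP signalling. The comparison asked how the expression of ligands and of antagonists around BEC differed when the membrane released axitinib.

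Reads assigned to genes numbered 17761968, 16716411 and 18005908 in 0%-Axitinib replicates 1, 2 and 3. They numbered 9225518, 11686084 and 18403795 in 3%-Axitinib replicates 1, 2 and 3. Values are CPM, the usual depth-scaled counts, with library sizes corrected by the trimmed mean of M values, and a level of 3 counts corresponded to between 0.157 and 0.33 CPM depending on the sample. This floor covers counting error only. The share of all reads in the count table entered as unmapped to the mouse genome was 5.47%, 3.84% and 14.9% in the 0%-Axitinib samples and 48.4%, 29.2% and 16.8% in the 3%-Axitinib samples. The unmapped share did not overlap between the groups. Its part in the results below, like that of reads from the rabbit cells, was not tested. Across tested genes, 0%-Axitinib replicate 3 stood apart, with a Spearman correlation of 0.891 and 0.893 to the other samples of its group, which correlated at 0.978 with each other. Without it the log2 fold changes of the antagonists Grem1 and Nog were 1.16 and 2.43, beside 1.32 and 2.27 with all samples.

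The antagonists Grem1 and Nog were higher in the 3%-Axitinib group, with no overlap between the groups, while none of the 4 ligands that could be tested met the study's criterion. The other antagonists, Chrdl1 and Bmper, overlapped between the groups. The study's criterion was a change of 1.5-fold or more together with p no larger than 0.05, read here as unadjusted. Read this way, 1456 genes met it as higher and 1785 as lower. The paper reports fewer differentially expressed genes in total, with more of them upregulated than downregulated. Of the 8 members that passed the filter on low counts, 2 met the criterion (25.0%), both higher, against 21.2% of the 15257 genes tested in either direction. Of all tested genes, 9.54% met it as higher and 11.7% as lower in the 3%-Axitinib group. The overall share of members past the criterion was thus near that of all genes. In edgeR's quasi-likelihood test with Benjamini-Hochberg adjustment, 0 members reached an adjusted p as low as 0.05, a level that 0.00655% of all tested genes reached. Unadjusted, 2 members had a p of that size, as did 23.5% of all tested genes. DESeq2's Wald test gave 2 members with such an adjusted p, which 12.9% of all tested genes had. All fold changes below are log2 values of the 3%-Axitinib group over the 0%-Axitinib group with the standard error (SE). In a bulk sample, more cells of a type and more RNA per cell cannot be told apart.

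Nog encodes noggin, a secreted dimer that covers the receptor-binding faces of BMP ligands. Its level was 0.783, 1.57 and 1.58 CPM in the 0%-Axitinib samples, compared with 4.84, 9.93 and 4.34 CPM in the 3%-Axitinib samples. The lowest 3%-Axitinib value exceeded the highest 0%-Axitinib value, and 3%-Axitinib replicate 2 was the highest. The counts behind these levels were 15, 27 and 29 against 44, 109 and 75 reads, in every sample above the floor of 3. The group means were 1.31 ± 0.457 and 6.37 ± 3.09 CPM (SD, n = 3). The log2 fold change was 2.27 (SE 0.50, 95% interval 1.08 to 3.47), with an edgeR p of 0.00278 and an adjusted p of 0.0972. With the mean level of the skeletal muscle markers as a covariate it was 2.96, with the limit given for this covariate under Bmp6 below. Nog is a gene of a single exon on the minus strand at chr11:89300638-89302332 of GRCm38, and the annotation places no other gene over it.

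Grem1 encodes gremlin 1, a secreted cystine-knot protein that binds Bmp2, Bmp4 and Bmp7. Its level was 24.1, 10.3 and 12.0 CPM in the 0%-Axitinib samples, compared with 44.0, 45.6 and 26.5 CPM in the 3%-Axitinib samples. The groups did not overlap, although 0%-Axitinib replicate 1 and 3%-Axitinib replicate 3 were close to each other. The group means were 15.4 ± 7.52 and 38.7 ± 10.6 CPM (SD, n = 3). The log2 fold change was 1.32 (SE 0.39, 95% interval 0.40 to 2.25), with an edgeR p of 0.0117 and an adjusted p of 0.127. Grem1 lies on the minus strand at chr2:113746164-113758646 and its exons overlap no other annotated gene. The two-sided exact permutation p was 0.1 for Grem1 and 0.1 for Nog, the smallest that 3 samples against 3 can give. Groups that do not overlap were found for 14.7% of all tested genes as higher and for 16.6% as lower in the 3%-Axitinib group, so separation by itself was common in these data.

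Chrdl1 encodes chordin-like 1, a secreted protein with cysteine-rich repeats that bind BMPs. Its level was 51.7, 21.6 and 20.5 CPM in the 0%-Axitinib samples, compared with 26.8, 29.2 and 14.1 CPM in the 3%-Axitinib samples. The highest value was that of 0%-Axitinib replicate 1, and the remaining values of both groups were interleaved. This gave a log2 fold change of −0.42 (SE 0.45, 95% interval −1.48 to 0.64, edgeR adjusted p 0.588). Without 0%-Axitinib replicate 1 it was 0.15, with the opposite sign.

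Bmper encodes a secreted protein with cysteine-rich repeats that binds BMPs and can hinder or aid their signalling depending on its amount. Its level was 20.1, 14.2 and 13.4 CPM in the 0%-Axitinib samples, compared with 20.7, 23.1 and 8.40 CPM in the 3%-Axitinib samples. The 3%-Axitinib group held both the highest and the lowest value. Bmper had a log2 fold change of 0.13 (SE 0.41, 95% interval −0.83 to 1.09, edgeR adjusted p 0.869), and its sign changed with the scaling to library totals (−0.0027), without 3%-Axitinib replicate 1 (−0.016) and without 3%-Axitinib replicate 2 (−0.14). Whether the antagonists differed from each other in their response was not tested.

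Among the ligands, Bmp2 and Bmp4 are close relatives with roles in cartilage condensation and bone formation. Bmp2 was at 9.40, 5.95 and 10.0 CPM in the 0%-Axitinib samples, compared with 5.39, 17.0 and 6.37 CPM in the 3%-Axitinib samples. Of the 3%-Axitinib samples, replicate 2 stood above all others, replicate 3 lay at the low end of the 0%-Axitinib range and replicate 1 just below it. For Bmp2 the log2 fold change was 0.18 (SE 0.50, 95% interval −0.998 to 1.36, edgeR adjusted p 0.848), with −0.52 when 3%-Axitinib replicate 2 was left out and −0.023 when 0%-Axitinib replicate 2 was. Bmp4 was at 7.26, 4.02 and 10.8 CPM in the 0%-Axitinib samples, compared with 9.68, 9.75 and 6.31 CPM in the 3%-Axitinib samples. The Bmp4 values of the 3%-Axitinib group all fell within the range of the 0%-Axitinib group. Bmp4 had a log2 fold change of 0.22 (SE 0.42, 95% interval −0.78 to 1.21, edgeR adjusted p 0.779), and it was −0.080 without 0%-Axitinib replicate 2.

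Bmp5, Bmp6 and Bmp7 form the other main branch of the classical BMP ligands, and Bmp6 is made by hypertrophic chondrocytes among other cells. Bmp6 was at 5.12, 2.97 and 1.96 CPM in the 0%-Axitinib samples, compared with 8.69, 2.19 and 12.3 CPM in the 3%-Axitinib samples. It was high in 3%-Axitinib replicates 1 and 3 and within the 0%-Axitinib range in replicate 2. The log2 fold change of Bmp6 was 1.21 (SE 0.66, 95% interval −0.37 to 2.78), the largest of the tested ligands, with an edgeR p of 0.113 and an adjusted p of 0.307. Leaving out 3%-Axitinib replicate 2 gave 1.64, which met the criterion with an edgeR p of 0.0182, and leaving out 3%-Axitinib replicate 3 gave 0.68 with an edgeR p of 0.394. Replicates 1 and 3 of the 3%-Axitinib group were also the samples rich in skeletal muscle markers, of which 22 of the 24 tested met the criterion as higher. The summed level of the 25 listed muscle markers was 246, 50.2 and 66.3 CPM in the 0%-Axitinib samples, compared with 19832, 79.9 and 10994 CPM in the 3%-Axitinib samples. Acta1, skeletal muscle actin, had the highest mean of them over all samples, though not in every sample, and was at 3924, 0.0911 and 1852 CPM in the 3%-Axitinib samples without meeting the criterion (edgeR p 0.0548). In a fit with the mean muscle marker level as a covariate, Bmp6 had a log2 fold change of −0.37 and Bmp7 one of −0.53. Since only 3%-Axitinib replicates 1 and 3 were rich in these markers, the covariate partly overlaps with the group. In every fit with it, the group difference rests largely on 3%-Axitinib replicate 2 against the 0%-Axitinib samples.

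Bmp7 was at 10.3, 3.67 and 2.66 CPM in the 0%-Axitinib samples, compared with 11.1, 4.28 and 4.05 CPM in the 3%-Axitinib samples. In each group replicate 1 was well above the other samples, so the spread within groups exceeded the difference between them. Bmp7 had a log2 fold change of 0.21 (SE 0.65, 95% interval −1.32 to 1.74, edgeR adjusted p 0.863). Its sign changed when 0%-Axitinib replicate 2 (−0.019), 0%-Axitinib replicate 3 (−0.13) or 3%-Axitinib replicate 1 (−0.42) was left out, and leaving out 0%-Axitinib replicate 1 gave 1.02.

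The remaining ligands, Bmp5 and Gdf5, the latter known for marking developing joints, were too low to pass the filter and were not in the main test. Bmp5 had 8, 4 and 6 counts in the 0%-Axitinib samples and 7, 5 and 6 counts in the 3%-Axitinib samples, close to the floor of 3 counts in every one. Gdf5 had 1, 1 and 0 counts in the 0%-Axitinib samples and 8, 1 and 0 counts in the 3%-Axitinib samples, so that only 3%-Axitinib replicate 1 rose above the floor. Without the filter, edgeR gave Bmp5 a log2 fold change of 0.62 (SE 0.82, p 0.468) and Gdf5 one of 2.77 (SE 1.72, p 0.139), neither past the criterion, and at counts this low such values depend on the prior count. The exons of Bmp4, Bmp5, Bmp6 and Gdf5 overlap a gene on the other strand (Gm15217, Gm26903, Txndc5 and Gm15557), and reads of such partners cannot be told apart where strand was not used in counting. Among the other pathway genes described below as past the criterion, this also holds for Chrd, Fst, Fstl3, Crim1 and Rgma. Their partners are Thpo, Gm47040, Prss57, Fez2 and A730056A06Rik.

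**Figure D1:**
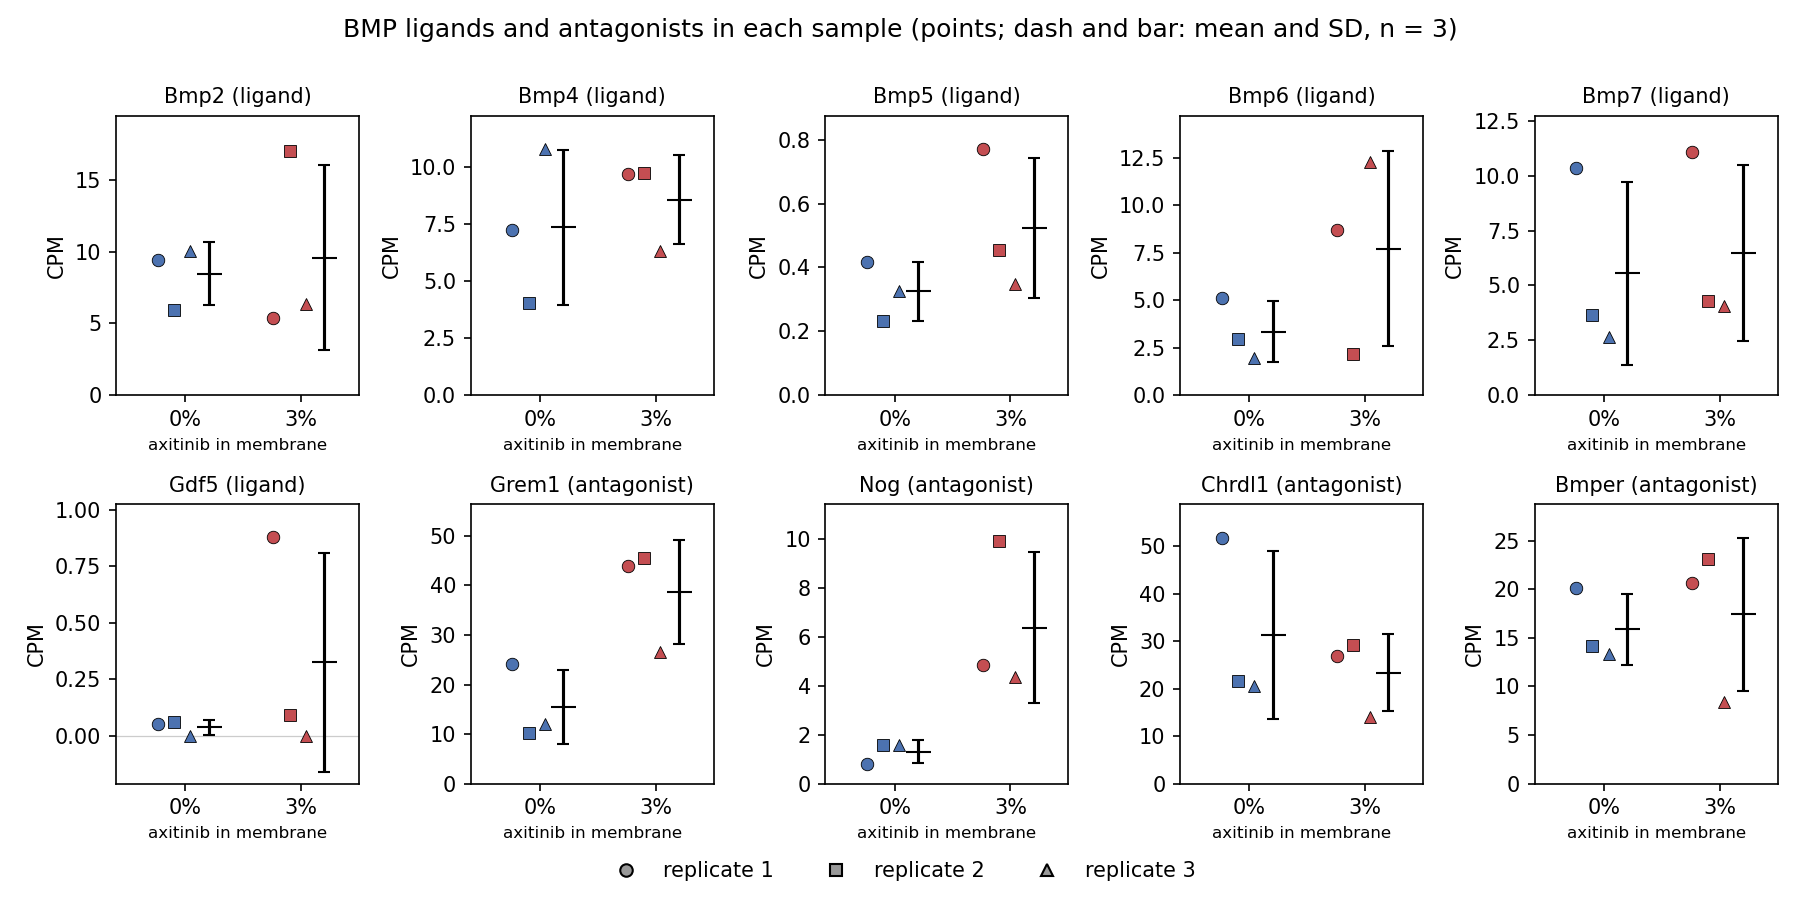
CPM of each of the 6 ligands and 4 antagonists (vertical axes, linear, a separate scale per gene) in the 0%-Axitinib (blue) and 3%-Axitinib (red) samples, with the mean and SD of n = 3 beside the points. The 3%-Axitinib points lie above all 0%-Axitinib points for Grem1 (26.5 CPM or more against 24.1 or less) and Nog (4.34 CPM or more against 1.58 or less) and overlap them for the other members.

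Ligands against antagonists, the median log2 fold change was 0.22 over the 4 tested ligands and 0.73 over the 4 antagonists, beside −0.03 over all tested genes. The ligand median changed sign with the muscle covariate (−0.024, antagonists 0.79) and when 0%-Axitinib replicate 2 was left out (−0.021), and it was 0.64 without 0%-Axitinib replicate 1. With library totals the medians were 0.086 for ligands and 0.59 for antagonists. Scaling to library totals alone shifted the median gene to −0.16 and the share of higher genes among those past the criterion from 44.9% to 28.8%. Grem1 and Nog were higher under that scaling too, with log2 fold changes of 1.18 and 2.15. The mean log2 CPM of the 6 ligands minus that of the 4 antagonists was −2.27 ± 0.097 for the 0%-Axitinib samples and −2.57 ± 0.60 for the 3%-Axitinib samples (SD, n = 3). By sample it was −2.19, −2.38 and −2.24 in the first and −2.19, −3.26 and −2.28 in the second. Of the 3%-Axitinib samples, replicate 2 lay far below the range of the 0%-Axitinib samples, replicate 1 marginally above it and replicate 3 within it. The difference between the groups was −0.30 with all samples and 0.044 without 3%-Axitinib replicate 2. The equal weight of every gene in this mean gives the very low Bmp5 and Gdf5 as much weight as the rest.

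Levels of different genes were compared as CPM per kilobase of exon. Bmp5 and Gdf5, near or below the floor, had the lowest means in both groups, at 0.0809 and 0.0159 CPM per kilobase with 0%-Axitinib and 0.13 and 0.14 with 3%-Axitinib. For the other 8 members, the mean levels on this scale in the 0%-Axitinib group ran from Chrdl1 (4.62) through Grem1 (3.72), Bmper (3.29), Bmp4 (3.28), Bmp2 (2.38) and Bmp7 (1.38) to Bmp6 (0.859) and Nog (0.773). In the 3%-Axitinib group they ran from Grem1 (9.33) through Bmp4 (3.82), Nog (3.76), Bmper (3.60), Chrdl1 (3.46) and Bmp2 (2.70) to Bmp6 (1.98) and Bmp7 (1.61). Grem1 thus exceeded every other member in each of the 3%-Axitinib samples, with 10.6, 10.98 and 6.39 CPM per kilobase. Nog moved from below Bmp4 in each 0%-Axitinib sample (0.462, 0.929 and 0.929 against 3.23, 1.79 and 4.81 CPM per kilobase) to the same range as Bmp4 in the 3%-Axitinib samples (2.85, 5.86 and 2.56 against 4.31, 4.34 and 2.81). Apart from Grem1 above Bmp4 in the 3%-Axitinib group, neighbours in these orders overlapped in their per-length levels.

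Summed over genes, the per-length level of the ligands was 7.99 ± 2.45 CPM per kilobase with 0%-Axitinib and 10.4 ± 1.35 with 3%-Axitinib (SD, n = 3). The same sum for the antagonists was 12.4 ± 4.91 and 20.1 ± 6.72 CPM per kilobase. The samples gave 18.1, 9.53 and 9.62 against 21.7, 25.9 and 12.8 CPM per kilobase for the antagonists, and the groups overlapped. The ratio of the antagonist sum to the ligand sum was 1.58 ± 0.429 and 1.91 ± 0.466, a difference within the spread between samples. The composition of the antagonist sum differed more clearly than its size. Grem1 made up 32.1%, 26.0% and 30.1% of it in the 0%-Axitinib samples and 48.9%, 42.3% and 50.01% in the 3%-Axitinib samples. Nog made up 2.56%, 9.75% and 9.66% of it in the former and 13.2%, 22.6% and 20.0% in the latter. Chrdl1 made up 42.3%, 33.5% and 31.5% against 18.3%, 16.6% and 16.4%, and Bmper 23.0%, 30.8% and 28.7% against 19.7%, 18.5% and 13.6%. None of these shares overlapped between the groups, and since shares add up to a fixed whole, the lower shares of Chrdl1 and Bmper do not show lower levels. Among the ligands, Bmp4 held 40.4% ± 12.0 of the ligand sum with 0%-Axitinib and 36.4% ± 4.18 with 3%-Axitinib, and Bmp2 held 30.2% ± 2.99 and 25.8% ± 16.1 (SD, n = 3). The share of Bmp7 was 17.0% ± 9.30 and 15.2% ± 7.95, while that of Bmp6 went the other way, at 11.2% ± 4.83 and 20.1% ± 15.2.

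**Figure D2:**
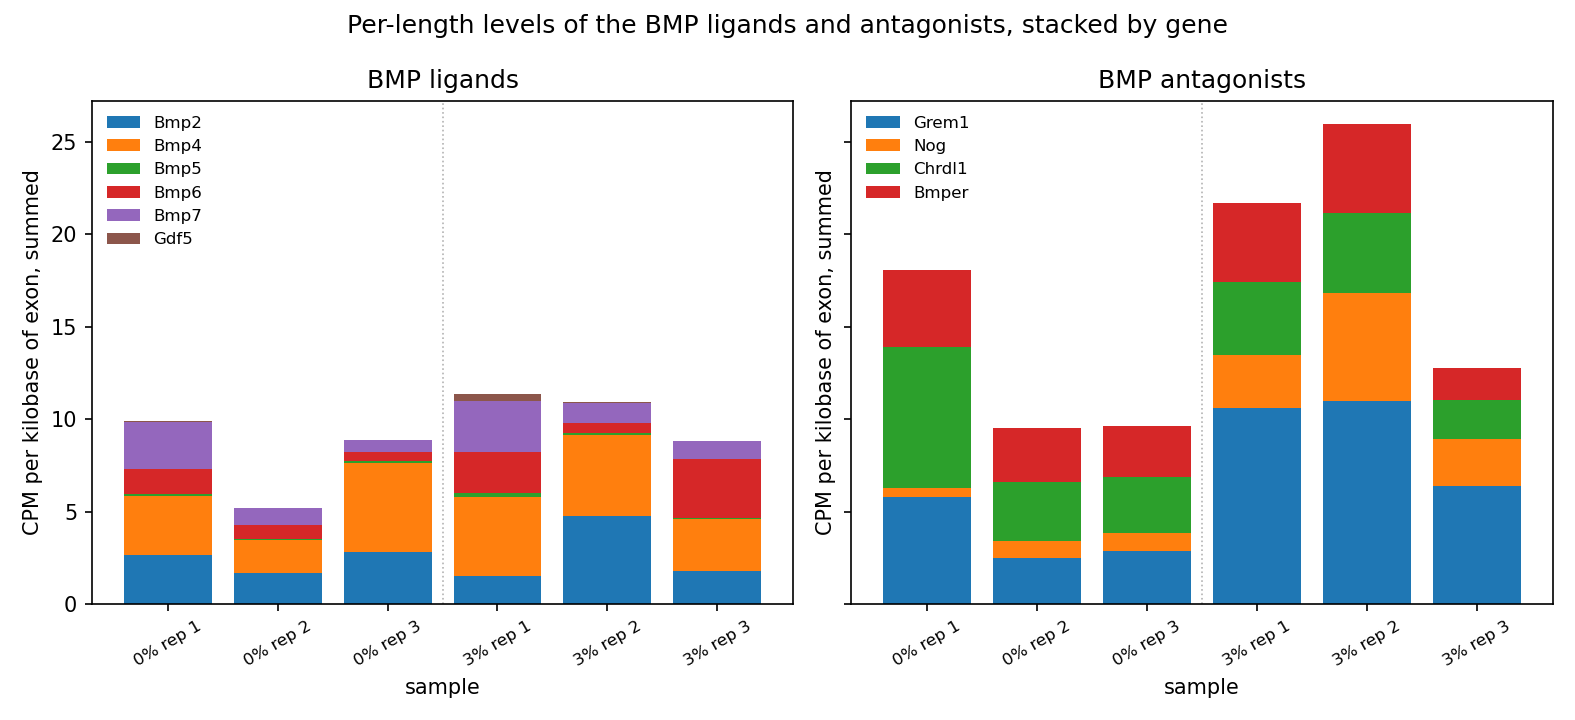
CPM per kilobase of exon (vertical axis, linear from 0) summed over the ligands (left) and the antagonists (right), stacked by gene, for each of the 6 samples along the horizontal axis. Grem1 and Nog together take a larger part of the antagonist bars in the 3%-Axitinib samples, while the bars of ligands and antagonists overlap between the groups in height.

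Of 54 other genes of the BMP pathway, 45 were tested, 11 of which met the study's criterion as higher (24.4%) and 2 as lower (4.44%) in the 3%-Axitinib group, beside 9.54% and 11.7% of all genes. Their median log2 fold change was 0.71. The adjusted p-values of edgeR's test for these 45 genes lay between 0.0965 and 0.992. Without any 1 sample, 7 of the 13 genes still met the criterion, and for the other 6 the samples on which it rested are given with each gene.

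Other antagonists and extracellular modulators held most of these genes, with 6 higher and 1 lower of 15 tested. Nbl1, a small cystine-knot antagonist of the family of gremlin, was at 287, 162 and 131 CPM in the 0%-Axitinib samples, compared with 867, 715 and 784 CPM in the 3%-Axitinib samples. It separated the groups widely, with a log2 fold change of 2.03 (SE 0.36, edgeR p 0.00073, adjusted p 0.0965). Sost, which encodes the osteocyte protein sclerostin, known chiefly as a Wnt antagonist, was at 5.12, 5.42 and 11.2 CPM in the 0%-Axitinib samples, compared with 27.2, 141 and 83.9 CPM in the 3%-Axitinib samples. Its log2 fold change was 3.53 (SE 0.65, edgeR p 0.000963, adjusted p 0.0965), or 2.95 when 3%-Axitinib replicate 2 was left out and 4.31 with the muscle covariate. Chrd, the gene of chordin, was at 11.4, 9.10 and 3.80 against 29.4, 16.0 and 35.0 CPM. Chrd had a log2 fold change of 1.73 (SE 0.47, edgeR p 0.00828, adjusted p 0.116), and with the muscle markers as a covariate it was 1.04 and did not meet the criterion.

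The activin and BMP binding proteins follistatin (Fst) and follistatin-like 3 (Fstl3) had log2 fold changes of 1.05 (SE 0.40) and 1.34 (SE 0.54). Fst overlapped between the groups, and neither met the criterion when 0%-Axitinib replicate 2 (0.88 for Fst, 1.38 for Fstl3), 3%-Axitinib replicate 1 (0.85 and 1.22) or 3%-Axitinib replicate 2 (0.85 and 1.32) was left out. Fstl3 did not meet it without 3%-Axitinib replicate 3 either (1.45). Bmp1, which despite its name is a protease that cleaves procollagens and chordin, had a log2 fold change of 0.82 (SE 0.32). It did not meet the criterion without 0%-Axitinib replicate 2 (0.63), 0%-Axitinib replicate 3 (0.72), 3%-Axitinib replicate 2 (0.65) or 3%-Axitinib replicate 3 (0.83). With the muscle covariate Fst (1.18), Fstl3 (1.17) and Bmp1 (0.88) did not meet the criterion, and neither did Fst (0.92), Fstl3 (1.20) and Bmp1 (0.67) with library totals, Fst with limma-voom (0.89) or Fst (0.96) and Bmp1 (0.86) with the replicate block. The 1 gene of this list that met the criterion as lower was Crim1, a membrane protein with cysteine-rich repeats that binds BMPs. It was at 53.2, 42.6 and 34.5 against 24.2, 27.7 and 14.8 CPM. Crim1 had a log2 fold change of −0.97 (SE 0.29, edgeR p 0.0132, adjusted p 0.132), and with the muscle covariate it was −0.84 and did not meet the criterion. Dand5, at 3.50, 3.56 and 3.91 against 6.71, 5.83 and 4.81 CPM, separated the groups without meeting the criterion (log2 fold change 0.66, SE 0.31, edgeR p 0.0696).

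Of the 9 other BMP and GDF ligands listed, 4 were tested and 1 met the criterion. This was Bmp8a, at 2.40, 1.63 and 0.652 CPM in the 0%-Axitinib samples, compared with 4.95, 11.1 and 8.57 CPM in the 3%-Axitinib samples. The groups did not overlap, and the log2 fold change was 2.39 (SE 0.57, edgeR p 0.00393, adjusted p 0.0986). No read was counted for Gdf2, which encodes BMP9, a ligand made mainly by the liver.

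The 11 receptors and coreceptors had a median log2 fold change of 0.14, with 2 higher and 0 lower past the criterion by edgeR's test. The receptors themselves were among those that did not meet it. The type I receptor gene Bmpr1a was at 36.6, 26.4 and 29.4 against 40.1, 37.5 and 24.5 CPM (log2 fold change 0.14, 95% interval −0.45 to 0.74). The type II receptor gene Bmpr2 was at 77.3, 83.8 and 67.9 against 70.2, 63.9 and 45.9 CPM (log2 fold change −0.35, 95% interval −0.85 to 0.16). Acvr2b, another type II receptor gene, did not overlap between the groups at 1.36, 1.63 and 0.652 against 2.09, 3.37 and 2.14 CPM, with a log2 fold change of 1.06 (SE 0.48) and an edgeR p of 0.0652. With at least 10 counts required in every sample it met the criterion (p 0.0444).

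The 2 that met the criterion were coreceptors of the repulsive guidance molecule family. Rgma was at 24.7, 18.0 and 9.18 against 47.3, 25.1 and 45.9 CPM, a log2 fold change of 1.19 (SE 0.41). It did not meet the criterion without 0%-Axitinib replicate 2 (1.21), 3%-Axitinib replicate 1 (1.04) or 3%-Axitinib replicate 3 (1.05), nor with the muscle covariate (0.55). Hjv, hemojuvelin, a gene expressed in skeletal muscle and liver, was at 0.574, 0 and 0.380 CPM in the 0%-Axitinib samples, compared with 38.2, 0 and 19.7 CPM in the 3%-Axitinib samples. It was thus high in the same 3%-Axitinib samples as the muscle markers. Its log2 fold change was 5.86 (SE 1.86), 4.92 without 3%-Axitinib replicate 1, and 4.15 with limma-voom, neither of which met the criterion, and −1.34 with the muscle covariate.

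Among the 6 Smad genes of the pathway, Smad1 met the criterion as lower and Smad9 as higher. Smad1, a receptor-regulated Smad, was at 45.4, 39.4 and 51.4 CPM in the 0%-Axitinib samples, compared with 28.5, 26.9 and 22.4 CPM in the 3%-Axitinib samples. The groups were well separated, with a log2 fold change of −0.81 (SE 0.19, edgeR p 0.00422, adjusted p 0.0989). Smad5 also lay lower without overlap, at 52.9, 46.5 and 69.7 against 44.7, 44.0 and 43.0 CPM, but did not meet the criterion (log2 fold change −0.36, SE 0.20, edgeR p 0.113). Smad9, which is induced by BMP signalling and weaker in driving targets, was at 0.887, 1.05 and 0.597 against 1.54, 4.19 and 1.39 CPM. Smad9 had a log2 fold change of 1.48 (SE 0.57), and it did not meet the criterion without 0%-Axitinib replicate 1 (1.51), 0%-Axitinib replicate 2 (1.66), 0%-Axitinib replicate 3 (1.28) or 3%-Axitinib replicate 2 (0.79), nor with library totals (1.34), limma-voom (1.28), no filter (1.44) or the replicate block (1.34), and it was 2.07 with the muscle covariate.

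Of the 10 listed target genes, 9 were tested and 1, Atoh8, met the criterion. Their median log2 fold change was 0.24, with 5 positive and 4 negative. The negative ones included Id2 (−0.029) and Id4 (−0.20), which both overlapped between the groups. Atoh8, a transcription factor gene induced by BMP signalling in several cell types, was at 6.58, 5.42 and 8.42 CPM in the 0%-Axitinib samples, compared with 21.7, 36.0 and 14.8 CPM in the 3%-Axitinib samples. The groups did not overlap, and the log2 fold change was 1.82 (SE 0.38, edgeR p 0.00207, adjusted p 0.0965). The inhibitors of differentiation Id1 and Id3, the most widely used readouts of BMP signalling, overlapped between the groups. Id1 was at 25.9, 13.1 and 47.9 CPM in the 0%-Axitinib samples, compared with 41.1, 148 and 45.0 CPM in the 3%-Axitinib samples, with 3%-Axitinib replicate 2 far above the rest. Its log2 fold change was 1.43 (95% interval −0.09 to 2.95, edgeR p 0.0621), 0.58 without 3%-Axitinib replicate 2, and it met the criterion without 0%-Axitinib replicate 3 (1.99) or 3%-Axitinib replicate 1 (1.74). Id3 was at 82.5, 37.1 and 150 against 131, 383 and 146 CPM, again with 3%-Axitinib replicate 2 highest. Id3 had a log2 fold change of 1.29 (95% interval −0.15 to 2.73, edgeR p 0.0724), 0.63 without that replicate and 1.87, past the criterion, without 0%-Axitinib replicate 3. With the muscle covariate both met the criterion, at 2.12 for Id1 and 1.89 for Id3, and so they did in DESeq2's Wald test (p 0.0252 and 0.0324) and in edgeR without the filter (p 0.0299 and 0.0387). The fit with the covariate rests largely on 3%-Axitinib replicate 2, the sample highest for both genes. No read was counted for the target gene Msx2.

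Markers of several cell types moved with the groups beside these genes, and their part in the results was not tested except where the muscle covariate is given. Because that covariate partly overlaps with the group, it cannot separate the part of muscle from that of the group. The summed level of 10 bone markers was 1396, 1538 and 1978 CPM in the 0%-Axitinib samples, compared with 2987, 18967 and 4257 CPM in the 3%-Axitinib samples. The highest sum was in 3%-Axitinib replicate 2, the sample that was also highest for Nog, Grem1, Bmp2, Sost, Id1 and Id3. For Grem1 the lead over 3%-Axitinib replicate 1 was small (45.6 against 44.0 CPM). Other genes did not follow, as Nbl1, Chrd, Rgma and Bmp6 were lowest in replicate 2 among the 3%-Axitinib samples. Ibsp, bone sialoprotein, had the highest mean of the bone markers over all samples, with 10536 CPM in that sample, while Spp1, osteopontin, exceeded it in each 0%-Axitinib sample (1053, 1265 and 1240 against 235, 182 and 330 CPM) and in 3%-Axitinib replicate 1 (1620 against 1047 CPM). Of 10 tested bone markers 4 met the criterion as higher, and the osteocalcin genes Bglap and Bglap2 had log2 fold changes of −1.27 and −0.91 without meeting it. In histology at the same week, the paper describes ossified implants in the drug-free membrane group, but not in the drug-loaded group compared here. Higher bone markers here thus do not show more ossification, and their relation to that histology was not tested. The 12 cartilage markers summed to 325, 208 and 230 CPM in the 0%-Axitinib samples, compared with 319, 1357 and 542 CPM in the 3%-Axitinib samples, with 6 of 10 tested higher. Comp, which did not meet the criterion, had their highest mean over all samples, and Col2a1 exceeded it in 0%-Axitinib replicate 3 (79.5 against 54.1 CPM) and in 3%-Axitinib replicates 2 and 3 (493 and 214 against 436 and 130 CPM). The 10 fibroblast markers, with Col1a1 the highest over all samples and Col1a2 in the 0%-Axitinib group, summed to 33605, 17341 and 11737 against 30996, 76001 and 33734 CPM, with 1 of 10 higher.

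Endothelial markers went the other way, at a sum of 933, 632 and 1011 CPM in the 0%-Axitinib samples, compared with 266, 290 and 403 CPM in the 3%-Axitinib samples, with 9 of 10 lower. Pecam1 had the highest mean of these over all samples, and Vwf, the marker that did not meet the criterion, had a higher mean than Pecam1 in the 3%-Axitinib group (83.5 against 69.6 CPM). The 8 markers of pericytes and smooth muscle, with Pdgfrb the highest over all samples and Rgs5 in the 0%-Axitinib group, summed to 900, 505 and 663 against 568, 749 and 485 CPM, with 2 of 8 lower. The 6 adipocyte markers, led by Fabp4, summed to 626, 628 and 806 against 305, 298 and 274 CPM, with 3 of 6 lower. The 6 leukocyte markers, with Laptm5 the highest over all samples and Coro1a in 0%-Axitinib replicate 3, summed to 1586, 2217 and 3323 against 1035, 1058 and 1764 CPM, with 3 of 6 lower. Of these 3, Ptprc was at 215, 351 and 363 CPM in the 0%-Axitinib samples, whereas the B cell marker Cd79a (1.67, 2.33 and 100.7 CPM) and the T cell marker Cd3e (0.261, 2.10 and 23.3 CPM) were high in 0%-Axitinib replicate 3 alone. The 7 macrophage markers, with Cd68 the highest over all samples and C1qa in 0%-Axitinib replicate 3, summed to 3894, 3913 and 2259 against 2744, 3567 and 4163 CPM, with 0 of 7 past the criterion by edgeR's test in either direction. Keratinocyte markers summed to 965 CPM in 0%-Axitinib replicate 2, where Krt1 was the highest, and to 8.69 CPM or less in each other sample, where Krt10 was. Every marker gene of these lists had a read in at least 1 sample.

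Promoters are shown for Grem1, Nbl1 and Sost, since these genes were higher together. Leaving aside the protease gene Bmp1, Nbl1 and Sost had the highest 3%-Axitinib means of the other antagonists and modulators that met the criterion as higher without overlap. The promoters are printed from RefSeq on GRCm38.p6, from 250 bases before to 50 bases after the start of the gene. Of the 10 members, 5 had an entry in the table used, and Nog was not among them. The motifs searched on both strands were GGCGCC, the palindrome described in BMP-responsive elements that bind Smad1, and ACGTG, the core of sites bound by hypoxia-inducible factors. Capitals mark the matches. All 3 genes lie on the minus strand, and the sequences run 5′ to 3′ on that strand from chr2:113758599-113758898 (Grem1), chr4:139092921-139093220 (Nbl1) and chr11:101966966-101967265 (Sost).
Grem1: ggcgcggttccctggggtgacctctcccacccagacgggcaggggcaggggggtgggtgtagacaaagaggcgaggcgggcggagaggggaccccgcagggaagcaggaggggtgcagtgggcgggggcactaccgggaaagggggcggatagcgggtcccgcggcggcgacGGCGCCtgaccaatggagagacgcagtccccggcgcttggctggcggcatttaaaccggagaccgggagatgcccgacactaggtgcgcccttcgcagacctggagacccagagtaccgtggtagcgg
Nbl1: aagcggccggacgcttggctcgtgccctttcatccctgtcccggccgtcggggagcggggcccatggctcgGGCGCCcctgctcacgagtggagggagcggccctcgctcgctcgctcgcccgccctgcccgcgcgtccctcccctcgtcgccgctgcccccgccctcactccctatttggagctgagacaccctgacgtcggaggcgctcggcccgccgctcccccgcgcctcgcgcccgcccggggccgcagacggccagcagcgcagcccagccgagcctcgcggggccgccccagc
Sost: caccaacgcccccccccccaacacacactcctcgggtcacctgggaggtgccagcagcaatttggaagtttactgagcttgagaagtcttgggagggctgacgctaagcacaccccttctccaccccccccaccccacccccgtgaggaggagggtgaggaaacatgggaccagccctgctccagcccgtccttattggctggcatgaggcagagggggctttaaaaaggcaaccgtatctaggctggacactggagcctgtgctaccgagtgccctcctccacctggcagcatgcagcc

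The Grem1 and Nbl1 promoters each held 1 match to GGCGCC and 0 to ACGTG, and the Sost promoter held 0 of either. Of the 32851 promoters of the same length in the table, 11.9% held GGCGCC and 19.6% held ACGTG. A match is a description of the letters and says nothing of binding.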

How the data were processed

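Total RNA of 6 samples was sequenced as poly(A) libraries. The authors aligned reads to GRCm38 (mm10), with STAR 2.5.2b per their processing notes, and deposited raw counts per gene. Strand use and annotation release are not given in the sources used here. Rows that name no gene were left out of library sizes and tests. They held, of each sample's total, 3.84% to 48.4% unmapped, 2.71% to 6.65% multimapping, 3.17% to 6.14% outside features and 3.55% to 5.74% ambiguous reads.

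Genes were filtered with filterByExpr (minimum count 10, minimum total 15), scaled by TMM and tested with the quasi-likelihood test of edgeR 4.0.16 (R 4.3.3), adjusted over all 15257 genes. SEs were derived from the fold change and its F statistic. Log2 CPM used a prior count of 2. DESeq2 1.42.0 and limma 3.58.1 were alternatives. Figures were drawn with matplotlib 3.10.9. The fit was tested on simulated data. Exon lengths and positions came from GENCODE annotation of GRCm38. Of the symbols, 91.0% matched, and Hjv and the cartilage marker Cnmd were listed under older ones.

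All members were named, and of the other tested pathway genes those that met the criterion or separated the groups, with receptors, Smads and Id genes where useful. Members and lists were chosen with earlier results of these data known. Alternatives were other scalings, tests and filters, a muscle marker covariate, a replicate block and leaving out each sample.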

Additional observations from a re-analysis of the deposited data

How the results depend on the processing

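Grem1 and Nog met the study's criterion under all 15 alternatives run for each, with log2 fold changes from 1.09 to 1.79 and from 1.81 to 2.96, and adjusted p-values from 0.0245 to 0.398 and from 0.00113 to 0.281. Of 120 member values under alternatives, 104 kept their sign and their side of the criterion, 15 changed sign and 1 newly met the criterion. None of the sign changes was in a member past the criterion. With all 6 samples they were Bmper with library totals (−0.0027), Bmp2 (−0.0064) and Bmper (−0.080) with limma-voom, Bmp2 with the replicate block (−0.0043), and Bmp6 (−0.37) and Bmp7 (−0.53) with the muscle covariate, under which Hjv (−1.34) changed sign too. The other sign changes came with 1 sample left out at a time, where log2 fold changes ranged from −0.52 to 0.47 for Bmp2, −0.080 to 0.59 for Bmp4, 0.68 to 1.65 for Bmp6, −0.42 to 1.02 for Bmp7, −0.66 to 0.15 for Chrdl1 and −0.14 to 0.46 for Bmper, and the median of the ligands from −0.021 to 0.64. The cause of these changes was not tested. Alternatives were also run for 18 of the pathway genes given by name, but not for Bmpr1a, Bmpr2, Id2 and Id4. For these 18 genes, 222 of 269 values kept their sign and side of the criterion, 36 no longer met it and 10 newly met it. By adjusted p, 0 members passed in edgeR with all samples and 2 in DESeq2. Over all genes, 3241 met the criterion and 1 had an adjusted p of at most 0.05. The counts of genes with such an adjusted p were 1961 in DESeq2, 2 in limma-voom, 15 without the filter, 1252 without 0%-Axitinib replicate 3, 58 without 3%-Axitinib replicate 2 and 0 with the muscle covariate or without any 1 of the other 4 samples. With the muscle covariate 1782 genes met the criterion. The replicate numbers gave no sign of pairing the samples. Deviations of same-numbered samples correlated at 0.18, −0.12 and −0.17 across genes, and not every sample correlated best with its own number. With deviations taken within groups of 3 samples, this check cannot exclude pairing. With the replicate block 2603 genes met the criterion and 2 had an adjusted p of at most 0.05, with Grem1 at 1.38 and Nog at 2.24. Low counts kept Bmp5 and Gdf5 out of the main test, and the ligand minus antagonist mean has no value of its own under another test or covariate.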
